A study of Mus musculus with 16 samples.

Results

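Mouse C3H10T1/2 cells that expressed histone H3.3 with both G34W and K27R were compared with cells that expressed H3.3 with G34R. All genes with a mean deposited value of at least 10 over the 4 libraries of these groups entered the comparison, which were 12571 of the 20325 genes in the table. C3H10T1/2 is a line of multipotent mouse mesenchymal cells, and the series addresses how mutation of H3.3 glycine 34 acts on their transcription. It holds 16 libraries of polyadenylated RNA in 8 groups of 2. All groups share the delivery: a lentivirus carried the histone transgene in for 2 days, and puromycin at 1.5 µg/ml then selected for 4 days.

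The first group, H3.3 G34W K27R, carried tryptophan at residue 34 and arginine at residue 27 on the same tail. The second group, H3.3 G34R, carried arginine at residue 34 and kept the lysine at residue 27. The residue at position 34 and the residue at position 27 therefore changed together, and their effects cannot be told apart. The other 6 groups expressed G34W, K27R, G34W K36R or no mutation in H3.3, and G34W or no mutation in H3.1. They entered the fit for its estimate of spread, and their levels are set beside some genes. The transgene adds to the H3 that the cells make themselves. The promoter that drives it is not given in the sources used here, and neither is its level. Nothing in the labels shows that paired libraries are separate cultures. The p-values then measure only how far paired libraries spread, pooled over all groups, and that spread may be technical. H3.3 G34W and both H3.1 groups had the widest pairs and weigh most in it. A standard error can therefore be large where the compared libraries are close. If each group is a single culture, a difference between cultures cannot be told apart from a difference between histones.

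H3.3 is the H3 variant that is placed into chromatin outside DNA replication, by the chaperones HIRA and DAXX with ATRX. Lysine 27 of its tail is methylated by the Polycomb complex PRC2, and trimethylation there is a mark of silenced genes. Lysine 36, near glycine 34, is methylated over active genes by SETD2 and the NSD enzymes, and methylated lysine 36 restrains PRC2 on the same tail. Changes of glycine 34 in H3.3 are known from giant cell tumour of bone, where G34W is typical, and from gliomas, where G34R occurs.

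The stretch of the 2 mouse H3.3 genes around these residues is shown because it holds every H3.3 codon changed in the study. It runs from codon 22 to codon 40, counted without the initiator methionine, and capitals mark codons 27 and 34. The sequences are of the cells' own genes on GRCm38, not of the transgenes. H3f3a lies on chromosome 1 at 180811804 to 180811860 on the minus strand, in exon 2 of 4 of transcript H3f3a-201. H3f3b lies on chromosome 11 at 116023887 to 116023943 on the minus strand, in exon 4 of 6 of transcript H3f3b-202. Both genes have a lysine codon at 27 and the same glycine codon at 34.
H3f3a: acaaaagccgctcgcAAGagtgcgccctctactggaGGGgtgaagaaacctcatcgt
H3f3b: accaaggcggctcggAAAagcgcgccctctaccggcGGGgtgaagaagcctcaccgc

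The 4 compared libraries held an estimated 26.9 to 32.6 M reads. Most mesenchymal markers were abundant in both groups, with a summed level of 585075 to 598581 in G34W K27R and 767099 to 786064 in G34R. Col1a1, Col1a2, Col3a1 and Vim made up most of the sum. Nt5e read only 1.11 and 0.973 against 1.08 and 2.42 and was too low to be tested. None of the 12 mesenchymal markers tested was called. Markers of other cell types were low beside these: epithelial markers summed to 28.8 to 32.1 against 189 to 231, and skeletal muscle markers to 65.4 to 78.8 against 590 to 606. Neural and glial markers summed to 57.6 to 60.3 against 203 to 213, leukocyte markers to 77.7 to 87.6 against 145 to 179, and endothelial markers to 1403 to 1429 against 1349 to 1385. Tek made up most of the endothelial sum, at 1370 and 1409 against 1274 and 1309. Cdh5, another endothelial marker, was called lower, at 2.22 and 0 against 30.2 and 27.8. Acta1 made up most of the skeletal muscle sum, at 46.6 and 59.4 against 558 and 556. The libraries within each compared group were very close, with an SD of the log2 ratio of 0.067 in G34W K27R and 0.068 in G34R over genes with at least 1000 reads, against 0.46 to 0.54 in the pairs of H3.3 G34W and of both H3.1 groups. H3.3 wild type had the closest pair, with a chi-square per degree of freedom of 1.23, and was counted as 1 sample.

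Transcription differed widely between the groups. With limma, 3153 of 12571 genes (25.1%) passed an adjusted p of 0.05. Of these, 1463 (11.6%) were higher and 1690 (13.4%) were lower in G34W K27R than in G34R. These shares are the background for each count of calls in a list below. Among the genes called higher, 722 differed by more than 2-fold, 150 by more than 8-fold and 16 by more than 32-fold. Among those called lower the numbers were 1131, 294 and 39. The libraries of the groups did not overlap for 11035 genes (87.8%), which is the background for every such statement below. Fewer cells of a type and less RNA per cell cannot be told apart in bulk RNA.

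**Figure D1:**
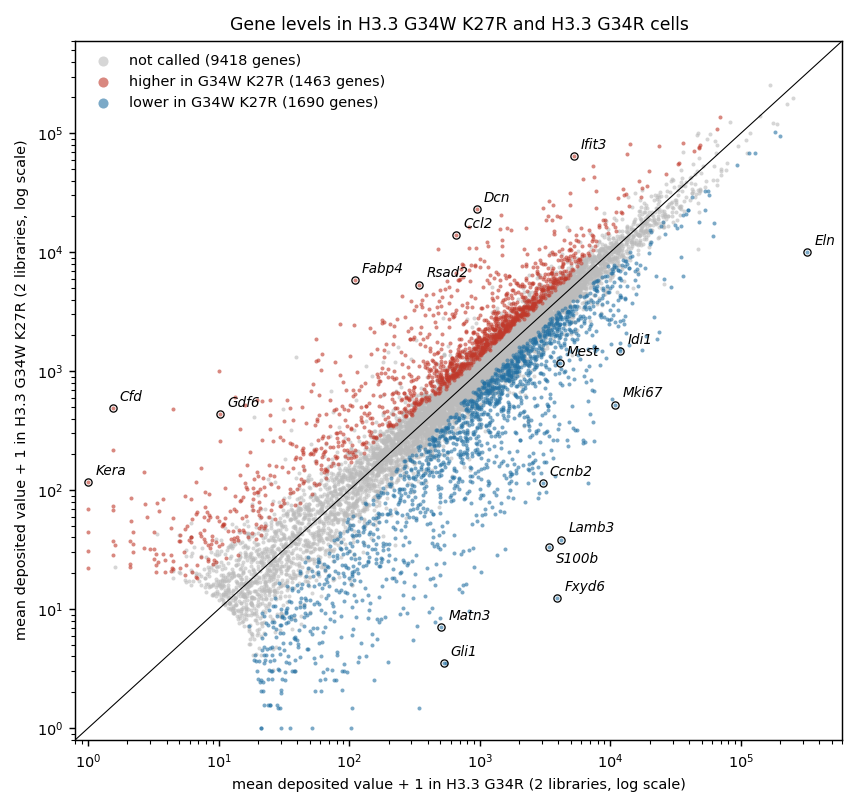
Mean deposited value + 1 of each of 12571 genes in H3.3 G34R (x axis) and H3.3 G34W K27R (y axis), both on log scales, 1 point per gene and 2 libraries per group. The 1463 genes called higher are red, the 1690 called lower are blue, and the line marks equal levels.

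The size of the call list rests on the estimate of spread. Counting each of the 5 close pairs (G34R, G34W K27R, G34W K36R, K27R and H3.3 wild type) as 1 sample, which leaves 3 residual degrees of freedom, 4 genes were called higher and 13 lower, and 1270 genes had an unadjusted p under 0.05. These 17 were all among the 3153 and include Ccnb2, Eln, Matn3, S100b, Wfdc12 and Ifi204. Calls also fell without a single compared library: 550 higher and 820 lower without G34R replicate 1, 573 and 819 without G34R replicate 2, 544 and 825 without G34W K27R replicate 1, and 552 and 858 without G34W K27R replicate 2. For each gene list below, the number of calls with close pairs counted as 1 sample is given as its strict count, which was 0 for every list where none is stated. Of the 144 called genes that are named by rule, 85 kept their call without G34R replicate 1, 89 without G34R replicate 2, 86 without G34W K27R replicate 1 and 82 without G34W K27R replicate 2. A call is described as fragile below where it was lost without any 1 of these 4 libraries. Leaving 1 out leaves its group with 1 library and widens the error of every difference. The label therefore also marks calls near the threshold, and does not by itself show that a difference rested on 1 library.

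Genes of the antiviral interferon response were higher in G34W K27R. Of 52 interferon-stimulated genes tested, 48 rose, none fell and 4 were not called, with a median log2 fold change of 2.83 against 0.0061 over all genes tested. Rsad2, which encodes the antiviral enzyme viperin, read 5421 and 5259 in G34W K27R and 309 and 377 in G34R. All other groups were lower than G34W K27R as well, with 405 and 394 in K27R, 0 and 19.7 in G34W, and at most 0.968 in H3.3 wild type. The log2 fold change of Rsad2 against G34R was 3.96 (SE 1.01, limma adjusted p = 0.0176).

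Ifit3, an interferon-induced protein that acts against viral RNA, read 66355 and 62870 against 4858 and 5598, a log2 fold change of 3.63 (SE 0.387, limma adjusted p = 0.000134). Isg15, the ubiquitin-like modifier of the response, read 11127 and 11380 against 1333 and 1617, a difference of 2.94 (SE 0.797, limma adjusted p = 0.0230). Mx1, an antiviral GTPase, read 3555 and 3371 against 441 and 495 and rose by 2.89 (SE 0.464, limma adjusted p = 0.00158). The groups did not overlap for any of these genes. In the other groups Isg15 read 1877 and 1867 in K27R, 85.4 and 147.6 in G34W, and 82.3 and 72.4 in wild type. Ifi44 rose by 3.71 and Oasl2, a relative of the 2'-5' oligoadenylate synthetases, by 3.54. The calls of Rsad2, Isg15, Ifi44 and Oasl2 were fragile. The smallest log2 fold change among the 52 was 0.93, so every member was above 0, the 4 uncalled genes Mx2, Oas1g, Ifi27l2a and Cmpk2 included.

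Across the 16 libraries the list stood highest in the 2 G34W K27R libraries. Measured as the list's median of log2(value + 1) after subtraction of each gene's mean over all libraries, it was 4.19 in both. It was 1.24 and 1.33 in G34R, and it ran from -2.87 in an H3.1 wild-type library to 1.76 in a K27R library over the other 12. The strict count was 1 of 52, Ifi204, although 38 had an unadjusted p under 0.05 in that fit. Calls numbered 33 without either G34W K27R library or without G34R replicate 1, and 35 without G34R replicate 2. Of the 3 leukocyte markers tested, Lyz2, the lysozyme of myeloid cells, fell, from 87.2 and 127.8 in G34R to 7.76 and 16.5. Cd68 read 46.6 and 47.7 against 39.3 and 36.2, and Csf1r 18.9 and 16.5 against 16.2 and 10.9, and neither was called. Ptprc and Tyrobp were at 0 in all 4 libraries.

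Promoters of the interferon-stimulated genes are shown for 3 of the members described, with the interferon-stimulated response element core (GAAA, any 2 bases, then GAAA) in capitals on either strand. Each is the 150 bases before the RefSeq start on GRCm38.p6, read along the gene's strand. The core stood in 17 of 45 promoter windows (37.8%) of the 39 list genes matched, against 978 of 32851 windows (2.98%) of all genes, where each window is the 250 bases before a start. Where cores overlap, the capitals run on. Isg15 lies on the minus strand at chr4:156200819-156200968, Rsad2 on the minus strand at chr12:26456453-26456602 and Ifit3 on the plus strand at chr19:34583379-34583528. Isg15 holds 3 overlapping cores, Rsad2 holds 1 on the opposite strand, and Ifit3 holds 1 whole core on the opposite strand, with the end of another at the left edge.
Isg15: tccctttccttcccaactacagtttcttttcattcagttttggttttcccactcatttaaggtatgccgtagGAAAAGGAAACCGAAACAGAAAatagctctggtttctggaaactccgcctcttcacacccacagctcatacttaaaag
Rsad2: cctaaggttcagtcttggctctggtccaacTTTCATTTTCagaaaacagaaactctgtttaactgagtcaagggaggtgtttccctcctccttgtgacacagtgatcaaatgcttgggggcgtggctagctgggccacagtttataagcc
Ifit3: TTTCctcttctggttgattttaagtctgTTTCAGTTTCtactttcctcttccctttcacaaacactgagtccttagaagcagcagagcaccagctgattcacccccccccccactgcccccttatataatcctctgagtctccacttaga

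Several chemokine genes rose as well. Of 23 inflammatory and NF-kB response genes tested, 8 rose, 1 fell and 14 were not called, with a median of 0.76. Ccl2, which attracts monocytes, read 13934 and 13985 in G34W K27R against 565 and 755 in G34R, and 138 and 133 in G34W. In H3.3 wild type Ccl2 was high as well, with a mean of 7077. Its log2 fold change was 4.42 (SE 0.373, limma adjusted p = 3.79e-05). Ccl7, a related chemokine, read 2441 and 2578 against 64.6 and 102.7 and rose by 4.93 (SE 0.355). Its mean in H3.3 wild type was 1090. Ccl5 rose by 4.45 and Cxcl10, which attracts T cells, by 3.96. The cytokine gene Il6 and the adhesion gene Vcam1 were not called, and the strict count was 0 of 23. Serpina3f, a protease inhibitor gene, read 628 and 638 against 46.8 and 67.7, while Serpina3g read 33.5 and 17.7 against 42.6 and 22.9 and its groups overlapped. Both were higher in H3.3 wild type than in G34W K27R, with means of 870 for Serpina3f and 1977 for Serpina3g. The Serpina3 genes are near copies of each other, so the division of reads among them is uncertain.

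Genes of cell division were lower in G34W K27R. All 24 genes of G2 and M phase fell, with a median log2 fold change of -3.97 and a range from -4.74 to -2.66. Ccnb2, a mitotic cyclin, read 112 and 114 in G34W K27R and 3106 and 2963 in G34R. No other library of the series read below 1267, the level of H3.1 G34W replicate 2. Ccnb2 fell by 4.74 on the log2 scale (SE 0.293, limma adjusted p = 8.54e-06), and its call was kept with close pairs as 1 sample (limma adjusted p = 0.0464).

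Mki67, the proliferation marker Ki-67, read 540 and 505 against 10915 and 10936 and fell by 4.38 (SE 0.551, limma adjusted p = 0.000374). Cenpf, a kinetochore protein, fell by 4.39, and Kif23, a kinesin of cytokinesis, by 4.37. The groups did not overlap for any of the 24. Foxm1, the transcription factor that drives many of these genes, had the smallest fall of the list. The centred median of the list was -3.45 and -3.47 in G34W K27R and between -0.21 and 1.08 in all 14 other libraries. All 24 calls were kept without any 1 of the compared libraries. The strict count was 1, and all 24 had an unadjusted p under 0.05 in that fit.

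S phase genes fell less far. Of 26 tested, 19 fell and none rose, and all 26 had a negative log2 fold change, with a median of -1.40. Rrm2, a subunit of the enzyme that makes deoxynucleotides, read 438 and 457 against 3150 and 3203 and fell by 2.83 (SE 0.576, limma adjusted p = 0.00579). Ccne2, a cyclin of S phase entry, fell by 2.42, and Uhrf1, which helps to maintain DNA methylation, and Cdc45, a helicase component, each fell by 2.30. Mcm2, Mcm3, Mcm4 and Mcm6 of the replicative helicase were not called, and the calls of Ccne2 and Uhrf1 were fragile. The strict count was 0, and calls numbered 5 or 6 without any 1 of the compared libraries: 6 without G34R replicate 1 or G34W K27R replicate 1 and 5 without replicate 2 of either group.

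The inhibitors of cyclin-dependent kinases moved in both directions. Cdkn2b, which encodes p15, read 759 and 797 in G34W K27R, 162 and 169 in G34R, 61.9 and 44.8 in G34W, and 0 in both H3.3 wild-type libraries. It rose by 2.23 (SE 0.474, limma adjusted p = 0.00739). Cdkn2a, which encodes p16 and Arf, read 427 and 456 against 142 and 139, with 37.5 and 39.4 in G34W and at most 0.968 in wild type, and rose by 1.64 (SE 0.310, limma adjusted p = 0.00374).

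Cdkn1a, the p21 gene and a p53 target, rose by 0.89, whereas Cdkn2c and Cdkn2d, the p18 and p19 genes, fell by 1.35 and 2.60. The strict count of these inhibitors was 0 of 6. Without G34R replicate 1 or either G34W K27R library only 1 of the 3 rises was called, and 2 were called without G34R replicate 2. Of 15 p53 targets, 7 rose and 3 fell, with a median of 0.89. Mdm2, which degrades p53, read 6958 and 6826 against 2658 and 2788, and Eda2r, a death receptor gene, read 1942 and 1819 against 349 and 378. Perp, a desmosome gene, fell by 3.72. No p53 target was in the strict count. Of the 3 falls, 2 were called without G34W K27R replicate 1 and 1 without any other of the compared libraries.

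Cholesterol synthesis genes fell together. All 22 genes of the pathway and of SREBP control that were tested fell, from -3.01 for Idi1 to -0.83 for Ebp, with a median of -2.01. Idi1, which isomerizes isopentenyl diphosphate, read 1483 and 1478 in G34W K27R and 11897 and 11927 in G34R, a log2 fold change of -3.01 (SE 0.295, limma adjusted p = 8.56e-05). Fdps, the farnesyl diphosphate synthase, read 1667 and 1713 against 10229 and 10050 and fell by 2.58 (SE 0.369). Sc4mol fell by 2.26 and Fdft1, the squalene synthase, by 2.22. The groups overlapped for none of the 22. The centred median of the list was -1.40 and -1.31 in G34W K27R, against a lowest value of -0.80 elsewhere, in H3.3 wild type. The strict count was 0, with 16 at an unadjusted p under 0.05, and 14 of 22 were called without any 1 of the 4 compared libraries.

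Promoters of 2 mitotic genes and of Idi1 are shown as examples from 2 lists that fell, with the CCAAT box in capitals on either strand. CCAAT stood in 18 of 20 windows (90%) of the 19 G2 and M phase genes matched, in 15 of 18 (83.3%) of the cholesterol genes, in 15 of 23 (65.2%) of the S phase genes and in 33.8% of all windows. TTTGAA, the core of the cell cycle homology region of mitotic promoters, stood in 8 of 20 G2 and M phase windows (40%) and in 16% of all windows. It stood in 3 of 23 S phase windows (13%) and in 1 of 18 cholesterol windows (5.56%). The part of either motif in these falls was not tested. Ccnb1 lies on the minus strand at chr13:100786487-100786636, Ccnb2 on the minus strand at chr9:70421555-70421704 and Idi1 on the plus strand at chr13:8885456-8885605 of GRCm38.p6. Ccnb2 holds 3 boxes and Ccnb1 holds 2, all on the gene's strand, and Idi1 holds 2 on the opposite strand.
Ccnb1: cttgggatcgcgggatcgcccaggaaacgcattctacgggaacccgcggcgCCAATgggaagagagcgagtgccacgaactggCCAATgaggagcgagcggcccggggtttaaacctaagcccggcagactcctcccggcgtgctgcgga
Ccnb2: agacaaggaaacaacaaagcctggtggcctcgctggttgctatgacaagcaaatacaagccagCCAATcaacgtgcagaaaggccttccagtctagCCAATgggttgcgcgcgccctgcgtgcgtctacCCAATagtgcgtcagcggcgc
Idi1: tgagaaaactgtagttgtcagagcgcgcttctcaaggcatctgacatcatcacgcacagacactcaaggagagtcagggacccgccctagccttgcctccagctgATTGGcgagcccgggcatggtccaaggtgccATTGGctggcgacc

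**Figure D2:**
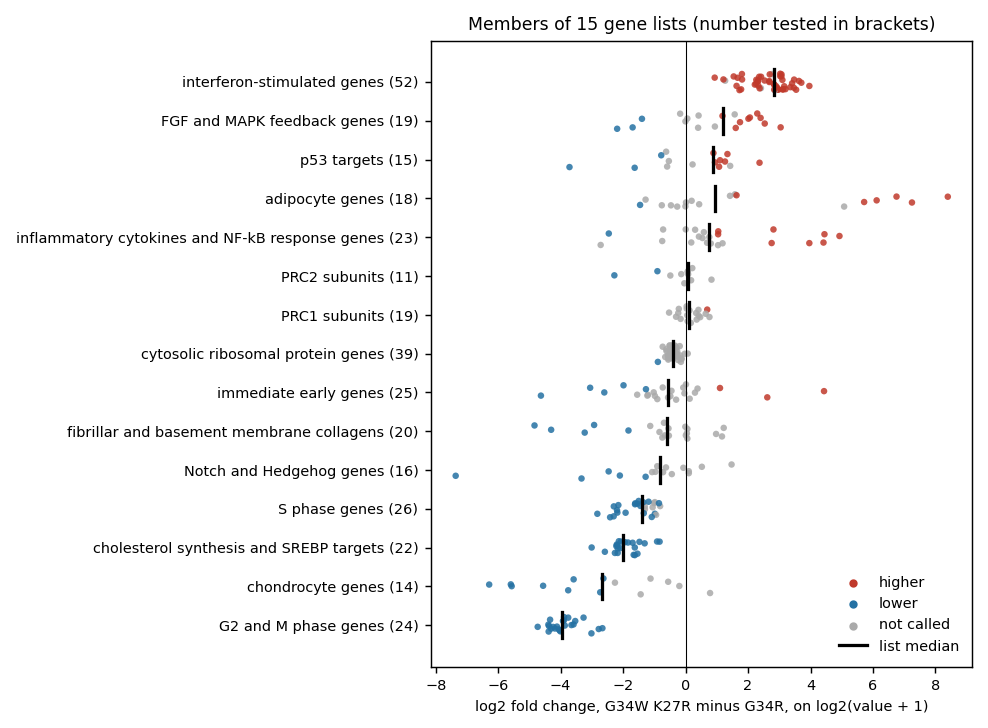
Log2 fold change of G34W K27R minus G34R, on log2(value + 1), for each tested member of 15 gene lists, 1 point per gene, with the list median as a black bar. Interferon-stimulated genes lie wholly above 0 (median 2.83), and G2 and M phase (-3.97) and cholesterol genes (-2.01) wholly below.

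Several cartilage genes were lower in G34W K27R. Of 14 chondrocyte genes tested, 8 fell and none rose, with a median of -2.68. Matn3, a cartilage matrix protein, read 3.33 and 8.76 in G34W K27R, 500 and 513 in G34R, and 43.9 or more in every other library. It fell by 6.29 (SE 0.346, limma adjusted p = 4.72e-06) and kept its call with close pairs as 1 sample (limma adjusted p = 0.0464), the only member to do so. Hapln1, the link protein of aggrecan, read 2.22 and 0 against 73.3 and 100.3, and Cytl1 fell by 5.57. Col9a1, a collagen of cartilage fibrils, fell by 4.56. Sox9, the transcription factor of the lineage, read 8461 and 9103 against 10041 and 10116 and was not called (-0.20, SE 0.150, limma adjusted p = 0.369). The centred list median was -0.32 and -0.27 in G34W K27R and 2.14 in both G34R libraries, and H3.1 wild type reached -2.73.

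S100b, a calcium-binding protein made by chondrocytes and glia, read 34.4 and 30.1 against 3365 and 3390. It fell by 6.67 (SE 0.279, limma adjusted p = 1.90e-06) and kept its call with close pairs as 1 sample (limma adjusted p = 0.0464). Tnn, which encodes tenascin-N, fell by 5.96. Panx3, a channel of skeletal cells, fell by 5.94. Bone genes moved the other way in part: of 9 osteoblast genes, 4 rose and 1 fell, with a median of -0.14. Spp1, osteopontin, read 21420 and 19630 against 1410 and 1501, and Dmp1, a matrix protein of osteocytes, read 577 and 556 against 33.4 and 31.4. Phex rose by 3.45, a fragile call, and Bmp4 by 1.42, while Alpl, the alkaline phosphatase of mineralizing cells, fell by 2.98.

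Elastin was lower in G34W K27R than in G34R. Eln read 9424 and 10563 in G34W K27R and 326260 and 318780 in G34R. It read 141239 and 153881 in G34W, 63646 and 56629 in K27R, and 39432 and 39418 in H3.3 wild type. H3.1 wild type was lower than G34W K27R, with a mean Eln value of 11.7. Against G34R, Eln fell by 5.01 (SE 0.328, limma adjusted p = 1.17e-05) and kept its call with close pairs as 1 sample (limma adjusted p = 0.0464). Of 27 elastic fibre and other matrix genes, 4 (14.8%) rose and 7 (25.9%) fell, with a median of -0.24. Fbln5, Emilin1, Lox and Loxl2, which assemble or crosslink elastic fibres and collagen, were among those that fell.

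The small leucine-rich proteoglycans were divided. Dcn, decorin, read 22704 and 23569 against 948 and 940 and rose by 4.61 (SE 0.402, limma adjusted p = 4.36e-05). Lum, lumican, rose by 4.49, a fragile call, and Kera, keratocan, read 115.1 and 115.8 against 0 in both G34R libraries, at least 33.7-fold higher against a floor of 3 reads per library. Fmod, fibromodulin, read 26.6 and 20.4 against 551 and 512 and fell by 4.45. Of 20 collagens, 5 fell (25%, against 13.4% of all genes) and none rose: Col8a2 by 4.84, Col8a1 by 4.30, Col5a3 by 3.23, Col11a1 by 2.93 and Col16a1 by 1.83. Col1a1, Col1a2 and Col3a1, the main chains of connective tissue, were not called. Without G34W K27R replicate 2, 3 of the 5 collagen calls were left, and that of Col11a1 was fragile.

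Lamb3 and Itgb4, genes of adhesion to basement membranes, were lower in G34W K27R. Lamb3, a laminin chain of epithelial basement membranes, read 46.6 and 28.2 in G34W K27R against 4244 and 4168 in G34R, and Itgb4, a subunit of the integrin that binds that laminin, read 145 and 187 against 2387 and 2397. Lamb3 fell by 6.82 (SE 0.551, limma adjusted p = 3.07e-05) and Itgb4 by 3.85 (SE 0.293, limma adjusted p = 2.29e-05). Of 26 integrin and laminin chains, 6 (23.1%) fell and 2 (7.69%) rose, with a median of -0.04. Itgb3 fell by 3.14 and Itga8 rose by 2.80, and 1 rise was called without G34W K27R replicate 1. The 3 epithelial markers tested, Krt14, Krt19 and Cdh1, fell too, and Krt14 read 1.11 and 1.95 against 77.4 and 78.7. Of these calls 1 was left without G34R replicate 1, G34R replicate 2 or G34W K27R replicate 1, and 0 without G34W K27R replicate 2. The remaining epithelial markers were near or at 0 in both groups: Krt18 was at 0 in all 4 libraries, Epcam read 0 in both G34W K27R libraries against 1.08 and 1.21, and Cldn4 and Ocln each read 1.11 and 1.95 against 0. The part of epithelial markers in the fall of Lamb3 and Itgb4 was not tested.

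Some genes of fat cells were higher in G34W K27R. Of 18 adipocyte genes tested, 6 rose, 1 fell and 11 were not called, with a median of 0.93. Fabp4, the fatty acid carrier of adipocytes, read 5849 and 5732 in G34W K27R and 113 and 105 in G34R, a log2 fold change of 5.72 (SE 1.49, limma adjusted p = 0.0194). Cfd, adipsin, read 505 and 465 against 1.08 and 0, which is 849 times the single read seen in G34R (95% exact counting interval 152 to 33560). Plin1, a lipid droplet protein, read 453 and 501 against 3.23 and 3.62, and Cidec and Retn rose too. Cebpa, an adipogenic transcription factor, read 806 and 849 against 2304 and 2242 and fell by 1.46. Pparg, the regulator of the lineage, read 1257 and 1268 against 917 and 950 and was not called.

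The libraries of G34W lay far apart in these genes, and their spread enters the standard errors of the comparison. Fabp4 read 7417 in G34W replicate 1 and 74.4 in replicate 2, and Cfd read 669 and 0. Adipoq, adiponectin, chosen after its values were seen, read 1358 and 1288 in G34W K27R, 35.6 and 41.1 in G34R, and 4082 and 7.65 in G34W, and was not called. The strict count was 0 of 18. Rises numbered 1 without G34R replicate 1 and 0 without G34R replicate 2 or without either G34W K27R library. Of the 12 largest rises named for the whole comparison, Cfd, Cidec, Plin1, Retn, Adrb3, Fabp4, Slc36a2, Car3 and Esm1 were above 100 in G34W replicate 1 and below 75 in replicate 2.

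Gdf6 and several FGF feedback genes were higher in G34W K27R. Gdf6, a BMP-family ligand, read 421 and 449 in G34W K27R and 7.55 and 10.9 in G34R, with 129 and 111 in K27R. It rose by 5.44 (SE 0.543, limma adjusted p = 9.40e-05). Of 26 TGF-beta and BMP genes, 4 (15.4%) rose and 4 (15.4%) fell, near the 11.6% and 13.4% over all genes: Gdf6, Tgfbr3, Bmp4 and Smad7 were higher, and the ligands Tgfb1, Tgfb2 and Tgfb3 and the protease gene Bmp1 were lower, with Tgfb3 fragile. Of 19 FGF and MAPK feedback genes, 9 rose and 3 fell, with a median of 1.18. Fgf10 rose by 3.04, and the feedback genes Dusp4, Spry1 and Etv4 by 2.53, 2.40 and 2.30, while the receptors Fgfr2 and Fgfr3 fell. The calls of Fgf10 and Etv4 were fragile. The strict count of both lists was 0. Rises of the FGF list numbered 5 without G34R replicate 1 or either G34W K27R library and 6 without G34R replicate 2.

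Some Hedgehog and Notch genes were lower in G34W K27R. Gli1, a transcription factor that is itself a target of Hedgehog signalling, read 1.11 and 3.89 against 515 and 539, and at least 23.5 in every other library. It fell by 7.36 (SE 0.723, limma adjusted p = 8.62e-05; 0.0636 with close pairs as 1 sample). Of 16 Notch and Hedgehog genes, 5 fell and none rose. Hey1, a Notch target, read 197 and 233 against 893 and 955, and the ligand Jag2 fell by 2.46. Ptch1, another Hedgehog target (-0.63), and the Notch targets Hey2 (-0.97) and Hes1 (0.52) were not called. Calls in this list numbered 2 without G34R replicate 1 or G34W K27R replicate 2 and 3 without G34R replicate 2 or G34W K27R replicate 1. Of 28 Wnt genes, 6 (21.4%, against 13.4% of all genes) fell, Rspo1 and Wnt10b among them. Another 2 (7.14%, against 11.6%) rose, Sfrp4 and Wnt9a. Neither rise was called without any 1 of the compared libraries.

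Immediate early genes did not move as one. Of 25 tested, 3 (12%) rose and 5 (20%) fell, against 11.6% and 13.4% of all genes. Fos, which encodes a subunit of AP-1, read 232 and 263 against 5667 and 6655 and fell by 4.63 (SE 1.07, limma adjusted p = 0.0110). Its relative Fosl1 read 1176 and 1298 against 58.1 and 54.4 and rose by 4.43 (SE 0.801, limma adjusted p = 0.00301). Fos read 5399 and 218 in the G34W libraries, and its call was fragile. Falls in this list numbered 3 without any 1 of the compared libraries, and rises numbered 1 without G34R replicate 1 or G34W K27R replicate 2 and 2 without the others. Maff rose by 2.62, and Ier2 fell by 3.06. Of 16 contractile and smooth muscle genes, 5 rose, 2 fell and 9 were not called, and 1 rise was called without any 1 of the compared libraries. Ankrd1 and Ctgf, targets of YAP, rose by 4.54 and 2.52, the latter fragile, while Cyr61, another YAP target, was not called (0.01, limma adjusted p = 0.988). The smooth muscle gene Cnn1 read 2.22 and 2.92 against 194 and 202.

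Genes of metabolism and stress moved in both directions. Of 26 glycolysis and hypoxia genes, 3 rose and 10 fell, with a median of -0.56. Adm, adrenomedullin, read 6036 and 6245 against 725 and 753, and Car9, a hypoxia-induced carbonic anhydrase, read 31.1 and 35.0 against 183 and 176. Falls in this list numbered 6 without G34R replicate 1, 5 without G34R replicate 2 or G34W K27R replicate 1, and 7 without G34W K27R replicate 2. Of 24 genes of the integrated stress and unfolded protein responses, 8 (33.3%) rose and 1 (4.17%) fell. The median of this list was only 0.11, and 11 members had a negative log2 fold change. The rises included the chaperone genes Hsp90b1, Hyou1, Hspa5 and Pdia4. Hsp90b1 read 85502 and 81061 against 35900 and 36417. Ddit3, the CHOP gene, rose by 1.37. Only 2 of the 8 rises were called without any 1 of the compared libraries. Of 39 ribosomal protein genes 1 was called, Rps20, with a fragile call, although 38 had a negative log2 fold change.

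Polycomb genes were called no more often than all genes, of which 25.1% were called. Of 11 PRC2 genes, 2 (18.2%) fell, against 13.4% of all genes, and none rose, with a median of 0.07. Ezh2, the methyltransferase of lysine 27, read 902 and 822 in G34W K27R and 1551 and 1670 in G34R, and 2029 and 2006 in wild type. It fell by 0.90 (SE 0.238, limma adjusted p = 0.0206), and Phf19, an accessory subunit, fell by 2.28. Ezh1, Eed and Suz12 were not called. Of 19 PRC1 genes only Cbx7 (5.26%) passed, with a rise of 0.69. Of 13 enzymes that methylate or demethylate lysines 27 and 36 only Setmar (7.69%) passed, with a fall of 1.04. Kdm6b, a lysine 27 demethylase, read 1640 and 1748 against 1232 and 1261 and was not called. The calls of Ezh2 and Setmar were fragile, and that of Cbx7 was kept without G34R replicate 1 and was lost without each of the other 3.

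Genes of H3.3 and of its deposition were lower in part. H3f3b, for which the codons are shown above, read 22617 and 22994 against 52698 and 54327 and fell by 1.23 (SE 0.155, limma adjusted p = 0.000373). H3f3a read 11943 and 12484 against 19990 and 20259 and missed the threshold (-0.72, SE 0.243, limma adjusted p = 0.0537). The sources used here do not say whether transgene reads count towards these genes, so their values do not check the labels. Asf1b and Chaf1b, chaperones tied to DNA replication, fell by 3.01 and 2.20, and Daxx, the H3.3 chaperone and an interferon-responsive gene, rose by 0.97. No member was in the strict count of these 4 lists.

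Imprinted and insulin-like growth factor genes moved in both directions. Mest, a paternally expressed gene, read 1144 and 1200 in G34W K27R and 4214 and 3995 in G34R, 4590 and 5234 in G34W, 201 and 246 in K27R, and 92.0 and 89.1 in wild type. It fell by 1.81 against G34R (SE 0.398, limma adjusted p = 0.00886), a fragile call, and stayed 2.39 above K27R (SE 0.398, limma adjusted p = 0.0020). Igfbp2, which binds these growth factors, read 8.87 and 7.78 against 265 and 289 and fell by 4.90, and Igf1 fell by 2.36. Igf2 read 661 and 600 against 177 and 181 and was not called (1.81, SE 0.718, limma adjusted p = 0.0932), with 1250 and 212 in the G34W libraries. Robo1, an axon guidance receptor, read 219 and 227 against 205 and 161 and was not called.

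**Figure D3:**
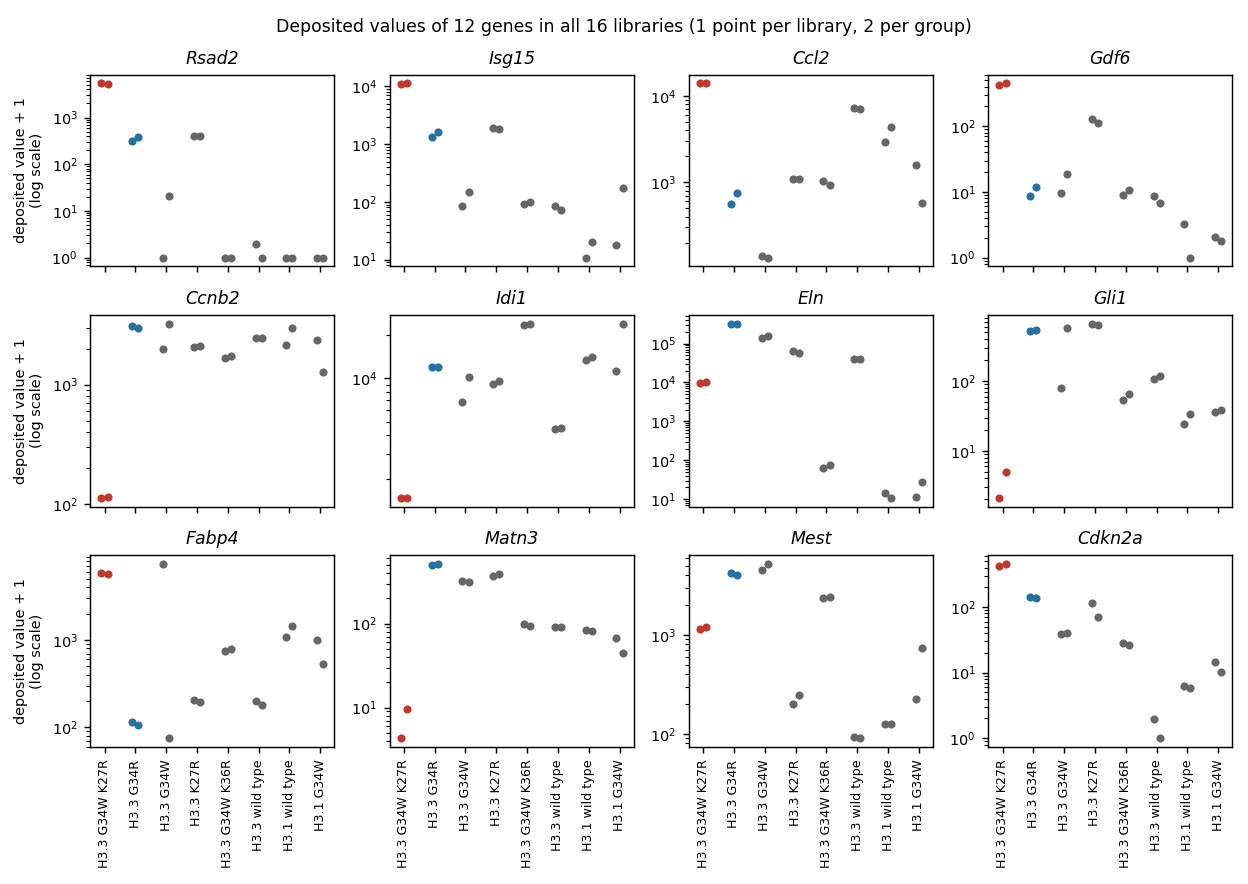
Deposited value + 1 (log scale) of 12 genes in all 16 libraries, 1 point per library and 2 per group, with G34W K27R in red, G34R in blue and the other groups in grey. Ccnb2, Idi1, Gli1 and Matn3 are lowest and Rsad2, Isg15 and Gdf6 highest in the 2 G34W K27R libraries, while the G34W libraries lie far apart for Fabp4.

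Other genes with the largest falls were named under a rule that itself required no overlap between the groups. Fxyd6, a regulator of the sodium pump, read 9.98 and 12.7 in G34W K27R against 3877 and 3954 in G34R and fell by 8.32 (SE 1.03, limma adjusted p = 0.000348). Wfdc12 read 1.11 and 3.89 against 534 and 563 and kept its call with close pairs as 1 sample (limma adjusted p = 0.0488). Megf6 was at 0 in both G34W K27R libraries and read 102.4 and 102.7 in G34R, at least 32.8-fold lower against the floor. Susd5 fell by 6.46. Serpina1e read 0 and 0.973 against 308 and 377, but it belongs to a family of near copies, so its share of reads is uncertain. Siglecg, an inhibitory receptor of leukocytes, read 76.5 and 93.3 against 1.08 and 1.21. Of the leukocyte markers, Lyz2 was lower, Cd68, Csf1r and Itgam read slightly higher in G34W K27R, and Ptprc was at 0 in all 4 compared libraries.

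Developmental regulators were called about as often as all genes, of which 25.1% were called. Of 8 Hox genes 2 (25%) fell, Hoxa3 by 0.70 and Hoxa4 by 0.57. Of 40 other developmental transcription factors 7 rose and 4 fell (27.5%), and none of the 40 differed by more than 1.47 on the log2 scale in either direction. Osr1 read 7198 and 7968 against 2798 and 2655 and Pax9 330 and 344 against 118 and 141, while Irx3 fell by 1.25. No developmental factor, Hox or Wnt gene was in the strict count. The calls of Hoxa3, Hoxa4, Osr1 and Irx3 were fragile, and that of Pax9 was kept without G34R replicate 2 and lost without each of the other 3. Of the 7 rises, 3 were called without either G34R library and 2 without either G34W K27R library.

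**Figure D4:**
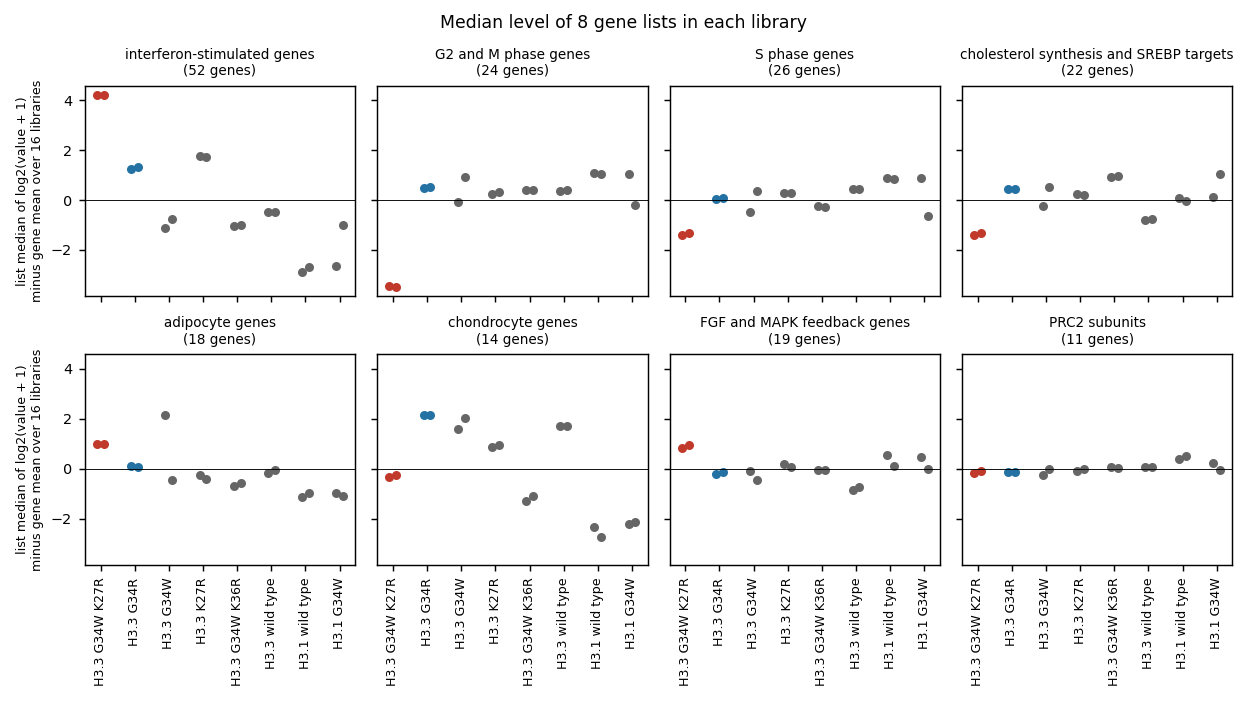
Median of log2(value + 1) minus each gene's mean over 16 libraries, for 8 gene lists in each library, 2 points per group. The interferon-stimulated list reaches 4.19 in both G34W K27R libraries and the G2 and M phase list -3.45 and -3.47, while the PRC2 list stays between -0.25 and 0.52 in all libraries.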

How the data were processed

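Polyadenylated RNA of 16 libraries was analysed from 1 deposited table of gene signals; a second deposited table holds the same values for 180 genes. The authors estimated reads with RSEM 1.2.4 on mm9, per the submitters' processing notes, and each library's values are such estimates times 1 constant. The deposited signal is labelled median-normalized, and how the constant was set was not checked. The aligner is not given in the sources used here. Whole reads made up 41.7% to 47.6% of values, so no count model was used. The steps give 26.02 to 49.1 M reads per library. Intervals and floors cover counting error only.

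Values were tested as log2(value + 1) with limma 3.58.1 in R 4.3.3 (statmod 1.5.0, eBayes with trend and robust, two-sided, Benjamini-Hochberg over 12571 genes). The fit held all 8 groups, with the H3.3 wild-type libraries averaged, so 15 samples and 7 residual degrees of freedom. Fold changes understate low genes.

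The members, gene lists and tests were chosen with earlier results of these data known. Genes named are the 12 largest called differences in each direction, given a group mean of 50 or more and no overlap, up to 4 called members of each of 42 lists by size, and 16 fixed genes. Other genes, called or not, are named only as list members; these and the genes drawn were chosen after their values were seen. The test was also run on simulated data in which the spread of a gene was the same in all groups. That run cannot check the calls against the unequal closeness of the real pairs. Sequences come from GENCODE and RefSeq on GRCm38.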

Additional observations from a re-analysis of the deposited data

How the results depend on the processing

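Fitting only the 4 compared libraries gave 4888 genes called higher and 4728 lower. With each close pair counted as 1 sample 4 were higher and 13 lower. Leaving out 1 library at a time gave 544 to 2018 higher and 819 to 2246 lower, and the lowest counts came without a library of G34R or G34W K27R; the lone library is then assumed to vary like the other groups. The other alternatives (pseudocounts of 0.5 and 5, no filter, a minimum mean of 50, upper-quartile and quantile scaling, eBayes without trend and robust, separate wild-type libraries) gave 1317 to 1886 higher and 1476 to 1945 lower. With a replicate block the counts were 1314 and 1549; replicate differences of the groups correlated at 0.0077 across genes, so the numbers were not taken as pairs. Serpina3g, not called, turned from -0.35 to 0.087 without G34R replicate 1 and to 0.094 without G34W K27R replicate 2, and its lowest value with 1 library left out was -0.787. Of 144 named genes called, 5 kept the call with close pairs as 1 sample. Depth limits genes near the floor of 3 reads, 2.92 to 3.62 in the deposited unit.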
